A study of Mus musculus with 6 samples.

Results

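The sodium channel beta subunits and FGF homologous factors of mouse dorsal root ganglia were examined in 6 bulk RNA-seq libraries. The set holds 7 genes, picked by symbol as accessory proteins of the channel, by a rule that uses no measured value, although earlier results of these data were known when the set was made. They are the beta subunit genes Scn2b, Scn3b and Scn4b and the FGF homologous factor genes Fgf11, Fgf12, Fgf13 and Fgf14, out of 54532 genes in the count table, and all 7 passed the filter on low counts. Dorsal root ganglia lie next to the spinal cord and hold the cell bodies of sensory neurons. The tissue came from Ash1l+/- mice, which carry 1 altered copy of the gene for the histone H3 lysine 36 methyltransferase Ash1l, and from wild-type (WT) littermates, with 3 libraries per genotype. The sources used here do not give strain, age, sex or the structure of the allele. They also do not say whether the 3 libraries of a genotype are 3 mice, so the p-values reflect the spread among libraries, part of which may be technical.

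Voltage-gated sodium channels carry the upstroke of the action potential, and their pore is formed by a single alpha subunit. Beta subunits are small membrane proteins with an extracellular immunoglobulin fold that bind the alpha subunit, alter its gating and surface level and also act as cell adhesion molecules. FGF homologous factors resemble fibroblast growth factors in sequence but stay inside the cell, where they bind the cytoplasmic tail of the alpha subunit and alter inactivation. In sensory neurons both families tune the currents carried by alpha subunits such as those of Scn9a, Scn10a and Scn11a.

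Scn2b and Scn4b are tandem neighbours on chromosome 9, on the same strand and 8.32 kb apart. Fgf12 spanned 593 kb, Fgf13 506 kb and Fgf14 699 kb in the annotation of the count table, against 5.79 kb for Fgf11. RefSeq windows from 250 bases before to 50 bases after a transcript start were found for 6 of the 7 genes, with 4 starts each for Fgf12 and Fgf13. Alternative first exons can give different protein N termini, which was not examined here. The starts lie up to 307 kb apart in Fgf12 and 451 kb apart in Fgf13. The gene counts do not separate their transcripts. The outermost Fgf13 window, chrX:59585523-59585822, lies beyond the Fgf13 end in the count table, 59568071, so that start is outside the counted gene. The Fgf11 window and the outermost Fgf12 window also lie beyond the counted ends of their genes, 69801857 and 28753068. By contrast the Fgf14 window, chr14:124192497-124192796, lies inside its counted gene, which ends at 124677127. Start windows of 4 genes are printed from RefSeq, build GRCm38.p6: the neighbours Scn2b and Scn4b, chr9:45117626-45117925 and chr9:45138374-45138673 on the plus strand, and Fgf12 and Fgf13, whose levels followed each other most closely in the results, chr16:28753194-28753493 and chrX:59567299-59567598 on the minus strand. Each is given 5′ to 3′, and capitals mark the dinucleotide CG, which reads the same on both strands.
Scn2b: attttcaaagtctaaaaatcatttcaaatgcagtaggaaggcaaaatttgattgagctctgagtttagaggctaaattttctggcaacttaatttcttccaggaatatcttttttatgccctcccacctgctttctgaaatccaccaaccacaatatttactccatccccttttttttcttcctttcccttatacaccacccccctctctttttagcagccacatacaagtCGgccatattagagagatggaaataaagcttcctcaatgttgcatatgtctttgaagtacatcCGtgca
Scn4b: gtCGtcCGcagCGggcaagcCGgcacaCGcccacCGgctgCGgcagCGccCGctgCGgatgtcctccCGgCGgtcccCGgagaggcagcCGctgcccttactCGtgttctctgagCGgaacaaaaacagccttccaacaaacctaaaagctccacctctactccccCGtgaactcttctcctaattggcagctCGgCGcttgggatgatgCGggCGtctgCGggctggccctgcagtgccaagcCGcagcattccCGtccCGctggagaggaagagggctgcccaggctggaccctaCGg
Fgf12: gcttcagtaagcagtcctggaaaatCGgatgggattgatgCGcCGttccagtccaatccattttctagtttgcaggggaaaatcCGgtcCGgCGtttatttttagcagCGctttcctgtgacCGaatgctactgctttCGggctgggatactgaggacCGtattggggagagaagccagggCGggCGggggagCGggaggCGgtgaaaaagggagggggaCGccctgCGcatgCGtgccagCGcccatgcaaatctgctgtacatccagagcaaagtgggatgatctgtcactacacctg
Fgf13: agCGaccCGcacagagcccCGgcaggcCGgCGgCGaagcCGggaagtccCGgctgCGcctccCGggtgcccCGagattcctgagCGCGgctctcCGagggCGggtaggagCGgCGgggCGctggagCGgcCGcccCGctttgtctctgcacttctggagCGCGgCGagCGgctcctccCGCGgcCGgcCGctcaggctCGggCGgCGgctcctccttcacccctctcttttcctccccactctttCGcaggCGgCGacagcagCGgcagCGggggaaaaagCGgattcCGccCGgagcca
The adjoining beta subunit genes differed in base composition at their starts, with 2 CG in the Scn2b window (38.3% G + C) and 26 in the Scn4b window (66.3% G + C). The Fgf12 window printed held 18, the fewest of that gene's 4 windows, which ranged up to 34, and the Fgf13 window printed held 40, the most of that gene's 4 windows, which ranged down to 3. Among all 32851 start windows in RefSeq, 94.6% held at least 1 CG and the median was 7, and 3.91% held as many as the Fgf13 window printed or more. The sequence TATAAA, searched on both strands, was in none of the 4 windows printed and in 1 of the 12 windows of the set, the Fgf13 window chrX:59166039-59166338, against 13.6% of all windows. These are matches of letters, not tested sites.

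Libraries held 17209294 to 20545722 gene counts. WT replicate 2 stood apart: across genes, which are not independent replicates, Pearson's r of log2 CPM was 0.846 to 0.877 between it and the rest, and 0.981 or more among the rest. The genotype fits of the 7 genes are therefore given with all 6 libraries and without WT replicate 2. Summed CPM of 9 skeletal muscle markers was 39.4 in that library against 2.62 to 4.72 in the other 5, and summed CPM of 5 erythrocyte markers was 628 against 31.5 to 101. The 7 sensory neuron markers, among them Avil, Prph and Isl1, were detected in every library. The altered gene itself, Ash1l, was no lower in libraries with the Ash1l+/- label, at 67.3 ± 1.40 CPM against 48.7 ± 15.7 in WT (SD, n = 3 each), with a log2 fold change of 0.46 (edgeR adjusted p = 0.396) with all 6 libraries and 0.22 (SE 0.08, adjusted p = 0.0593) without WT replicate 2, where Ash1l was at 30.9 CPM. With the trends of gene length and GC described for Fgf12 removed, it was -0.04 and -0.03. Thus the direction of every difference rests on the labels alone. CPM are edgeR's counts scaled to a common library size after TMM adjustment.

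Fgf13 and Scn4b were the leading genes of their families. Scaled by gene length, the mean over 6 libraries was 136 CPM per kilobase for Fgf13, 95.1 for Scn4b and 59.4 for Fgf12, levels above 97.8%, 96.6% and 94.3% of all tested genes. Scn3b followed at 18.9 CPM per kilobase, Scn2b at 14.0 and Fgf11 at 4.91, and Fgf14 was close to the detection limit at 0.244. Between neighbours in this order, the libraries of Fgf13 (99.3 to 166) overlapped those of Scn4b (61.2 to 111), and Scn4b overlapped Fgf12 (44.7 to 73.1) only through WT replicate 2. Scn3b (15.6 to 21.1) lay above Scn2b (12.7 to 15.1) in every library, and no other neighbours overlapped.

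**Figure D1:**
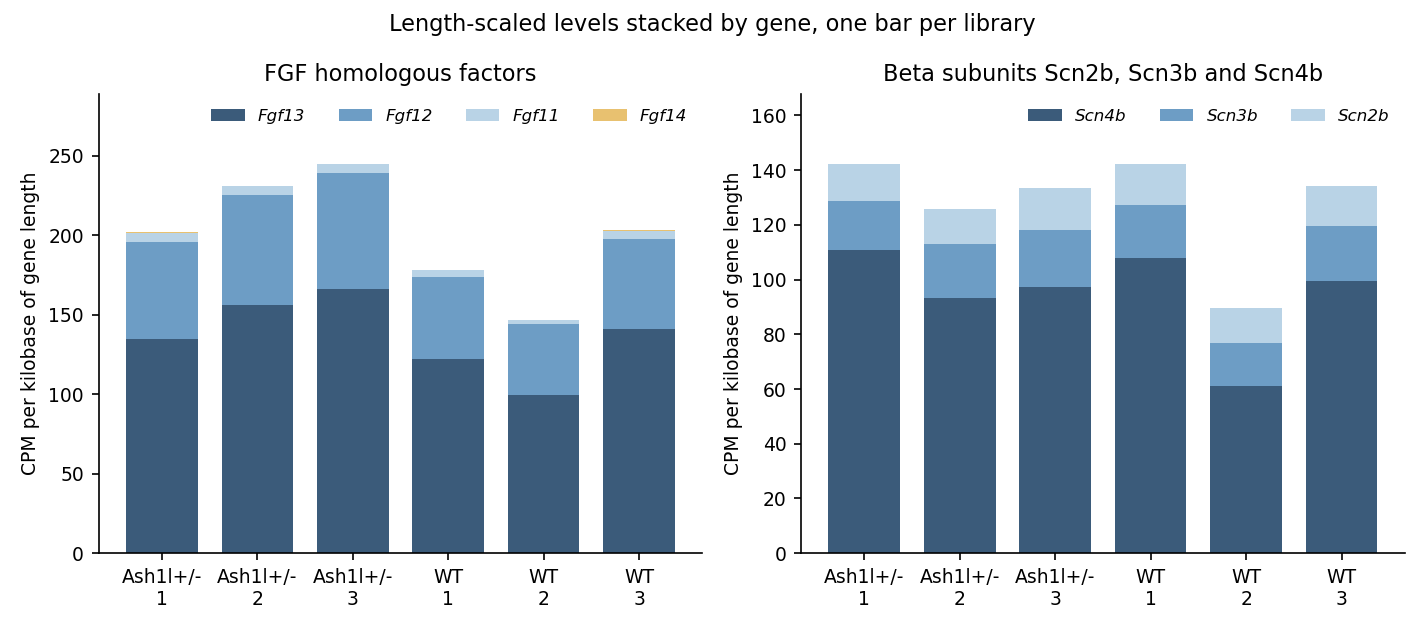
Stacked bars give length-scaled levels (CPM per kilobase of gene length) of the FGF homologous factors, left, and of the beta subunits Scn2b, Scn3b and Scn4b, right, with 1 bar per library and Ash1l+/- left of WT. Fgf13 formed 66.9% to 69.3% of its family in all 6 libraries, and the WT replicate 2 bar is the shortest in both panels.

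Fgf13 and Fgf12 kept steady shares of the FGF homologous factors. Relative to their means, the shares of the less abundant Fgf11 and Fgf14 varied more. On the length-scaled level, Fgf13 made up 67.4% ± 0.443 of the 4 genes in Ash1l+/- and 68.4% ± 0.869 in WT, and Fgf12 29.9% ± 0.155 and 29.2% ± 1.17 (SD, n = 3 each). Fgf11 formed 2.56% ± 0.327 in Ash1l+/- and 2.29% ± 0.330 in WT, with libraries from 1.90% to 2.93%. Fgf14 formed 0.139% ± 0.0169 in Ash1l+/- and 0.0984% ± 0.0225 in WT, with libraries from 0.0730% to 0.150%. The ratio of Fgf13 to Fgf12 lay between 2.22 and 2.47 in all 6 libraries, WT replicate 2 included. Among the 3 beta subunits, Scn4b made up 75% ± 2.69 in Ash1l+/- and 72.8% ± 3.96 in WT, with the lowest share, 68.4%, in WT replicate 2. The summed level of the FGF homologous factors was 202, 231 and 246 CPM per kilobase in Ash1l+/- replicates 1, 2 and 3, against 178, 147 and 203 in WT replicates 1, 2 and 3. Ash1l+/- replicate 1 lay just below WT replicate 3, so the groups overlapped. The summed beta subunits came to 134 ± 8.35 in Ash1l+/- and 122 ± 28.4 in WT, with overlapping libraries.

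The comparison of genotypes asked whether these channel modulators differ in ganglia with 1 altered Ash1l copy. Over all tested genes the median log2 fold change was 0.00 with or without WT replicate 2. The 4 FGF homologous factors had higher means in Ash1l+/- with or without WT replicate 2, and without it Fgf12 passed the test at 1.24-fold, a call lost with length and GC trends removed, in the FPKM fits and in 3 of 5 fits that left out another library. The 3 beta subunits were at 0.938 to 0.990 of the WT level without that library, and none passed the test. With all 6 libraries edgeR's quasi-likelihood test called 0 of the 7 genes, none of which had an unadjusted p under 0.05, against 0% of 16032 genes called and 10.6% under that unadjusted p. DESeq2 and limma-voom also called 0 of the 7 (35 and 0 of all genes). Without WT replicate 2 edgeR called 1 of the 7, against 19.8% of 16395 genes in either direction, 9.39% higher and 10.4% lower. The share of 1 in 7 was no larger than that called in either direction. It was larger than the share called higher, but it rests on 1 gene. An unadjusted p under 0.05 was found for 3 of the 7, Fgf11, Fgf12 and Fgf13, against 33.2% of genes.

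**Figure D2:**
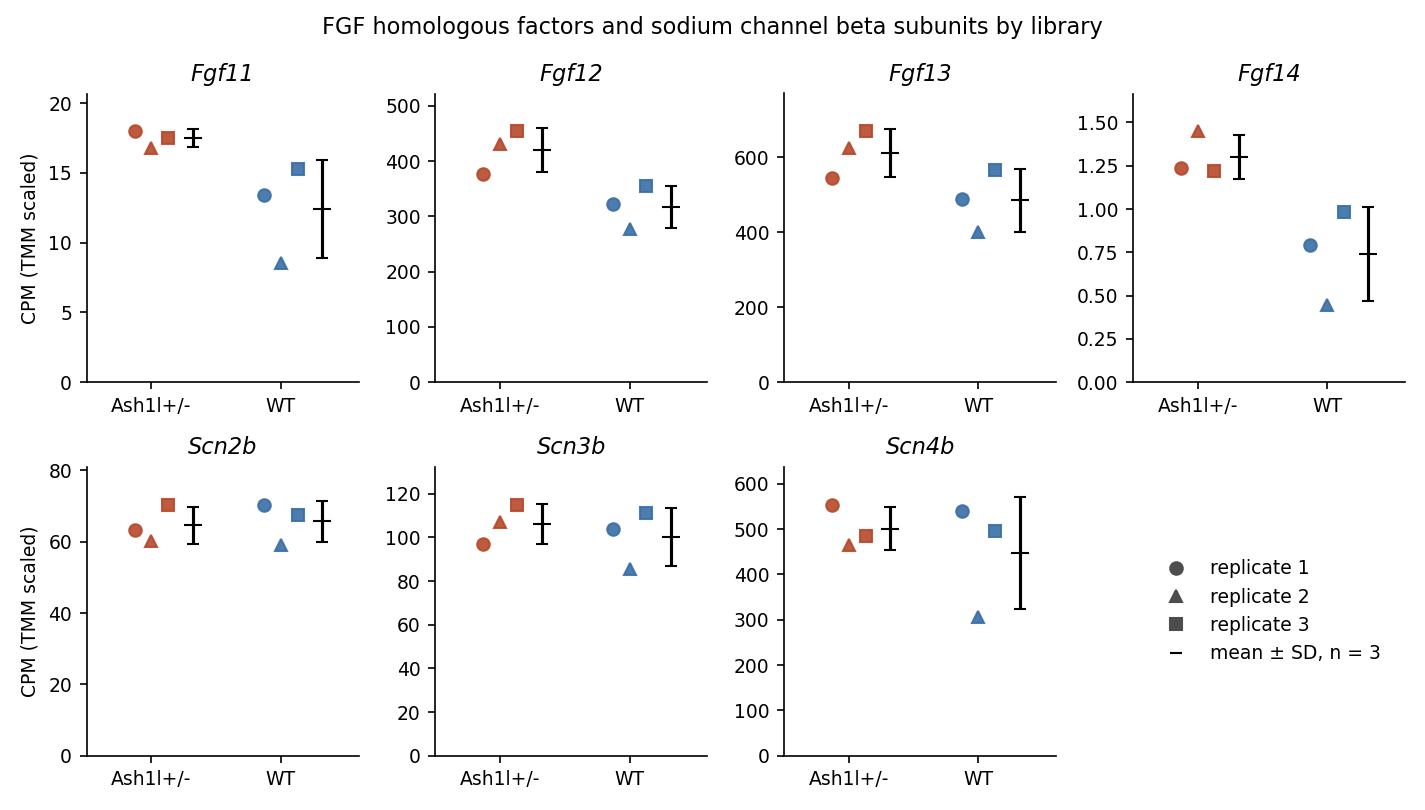
CPM after TMM scaling in each library for the 4 FGF homologous factors (top) and 3 beta subunits (bottom), Ash1l+/- left of WT; symbols give the replicate number, and bars to the right of the points give the mean ± SD of 3 libraries. Every Ash1l+/- library lies above every WT library for Fgf11, Fgf12 and Fgf14, and WT replicate 2 is the lowest library in all 7 panels.

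Fgf12 encodes an FGF homologous factor that, in human, is linked to early-onset epilepsy when its function is altered. It lies on chromosome 16 from 28160098 to 28753068 on the minus strand of GRCm38 (ENSMUSG00000022523). CPM was 376, 430 and 454 in Ash1l+/- replicates 1, 2 and 3, against 322, 277 and 354 in WT replicates 1, 2 and 3. The groups did not overlap, and WT replicate 2 was the lowest of the 6. The means were 420 ± 39.5 CPM in Ash1l+/- and 317 ± 38.5 in WT (SD, n = 3 each), with a log2 fold change of 0.40 (SE 0.17) and an adjusted p of 0.385 in edgeR. Leaving out WT replicate 2 gave a log2 fold change of 0.32 (SE 0.08, edgeR adjusted p = 0.0110), a fold of 1.24 with a 95% interval from 1.11 to 1.40. The call was lost in edgeR when another library was left out beside WT replicate 2, at 0.30 without Ash1l+/- replicate 2 (adjusted p = 0.0501), 0.26 without Ash1l+/- replicate 3 (0.0626) and 0.25 without WT replicate 1 (0.179, with the single WT library left assumed to vary like the other group). It was also lost in the 3 limma fits of deposited FPKM, at 0.31 to 0.32 (adjusted p 0.0965 to 0.176).

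Base composition and length of genes also separated Ash1l+/- from the other WT libraries. Across genes, the difference of Ash1l+/- from WT replicates 1 and 3 had a Spearman rho of -0.57 with the GC share of the longest transcript and of 0.29 with gene length. At 43.7% G + C, Fgf12 was lower in GC than all but 19.6% of tested genes, and it was longer than 73.0% of them. With both trends removed from each library, the log2 fold change of Fgf12 was 0.15 (SE 0.06, edgeR adjusted p = 0.177) without WT replicate 2 and 0.07 (SE 0.13, adjusted p = 0.790) with all 6. In that fit of 5 libraries 7.20% of genes were called, 2.67% higher and 4.54% lower, and 22.0% had an unadjusted p under 0.05. With trends removed from all 6 libraries edgeR called 0 of the 7 and 0% of genes, with 5.67% of genes and 0 of the 7 under that unadjusted p.

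Fgf11, the smallest gene of the family, encodes the least studied of the 4 factors. It lies on chromosome 11 from 69796068 to 69801857 (ENSMUSG00000042826). CPM was 18, 16.8 and 17.5 in the Ash1l+/- replicates, against 13.4, 8.52 and 15.3 in WT replicates 1, 2 and 3. The Ash1l+/- libraries lay close together and above every WT library, and WT replicate 2 was far below the other WT libraries. With all 6 libraries the log2 fold change was 0.49 (SE 0.25, edgeR adjusted p = 0.385), and without WT replicate 2 it was 0.28 (SE 0.12, adjusted p = 0.107). With 53.0% G + C and a length below the middle of the tested genes, Fgf11 had a larger estimate when the trends were removed, unlike Fgf12. Its log2 fold change was then 0.41 (SE 0.11, edgeR adjusted p = 0.0314) without WT replicate 2, the single member called in that fit, and 0.67 (SE 0.29, adjusted p = 0.557) with all 6.

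Fgf13, on chromosome X from 59062145 to 59568071 (ENSMUSG00000031137), encodes a factor that also binds microtubules and that mouse sensory neurons need for normal heat pain. CPM was 543, 625 and 669 in Ash1l+/- replicates 1, 2 and 3, against 489, 399 and 566 in the WT replicates. Ash1l+/- replicate 1 lay below WT replicate 3, so the groups overlapped. The log2 fold change was 0.34 (SE 0.19, edgeR adjusted p = 0.392) with all 6 libraries and 0.22 (SE 0.09, adjusted p = 0.0847) without WT replicate 2. With trends removed it was 0.19 and 0.14, and neither passed. Leaving out another library beside WT replicate 2 gave values on both sides of the threshold in edgeR. The gene passed at 0.29 without Ash1l+/- replicate 1 (adjusted p = 0.00743) and at 0.32 without WT replicate 3 (0.0378), where 4198 of 16159 and 2584 of 17100 genes were called. It did not pass at 0.20 without Ash1l+/- replicate 2 (0.206), 0.15 without Ash1l+/- replicate 3 (0.313) or 0.11 without WT replicate 1 (0.609). Without WT replicate 1 or 3 a single WT library was left, and its spread was taken from the Ash1l+/- libraries.

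Fgf14, whose loss of function causes an ataxia in human, lies on chromosome 14 from 123977907 to 124677127 (ENSMUSG00000025551). It had 27, 27 and 22 reads in Ash1l+/- replicates 1, 2 and 3, against 16, 6 and 19 in WT replicates 1, 2 and 3. In CPM the groups did not overlap, at 1.3 ± 0.126 in Ash1l+/- and 0.741 ± 0.272 in WT (SD, n = 3 each). At this depth the exact 95% Poisson intervals, which cover counting error only, ran from 0.767 to 1.85 CPM for Ash1l+/- replicate 3 and from 0.593 to 1.54 CPM for WT replicate 3. The intervals of Ash1l+/- replicate 2 (0.955 to 2.11 CPM) and WT replicate 2 (0.165 to 0.976 CPM) barely overlapped. The log2 fold change was 0.79 (SE 0.37, edgeR adjusted p = 0.385) with all 6 libraries and 0.55 (SE 0.39, adjusted p = 0.345) without WT replicate 2. With trends removed it was 0.44 and 0.32, and on the log2(FPKM + 1) scale, which understates changes of low genes, 0.16 and 0.12, and none of these passed. Genes overlapping Fgf14 on either strand had at most 4 reads in any library.

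Fgf11, Fgf12 and Fgf14 were thus the 3 of 7 genes whose genotypes did not overlap, with Ash1l+/- higher, a pattern found in 19.3% of the 16032 tested genes. The same 3 had that order without WT replicate 2, where it held for 23.9% of genes. Both shares cover 1 direction only. Genes with every Ash1l+/- library below every WT library were not counted, so a share in either direction is not given. Permuting the genotype labels over the log2 CPM of the 6 libraries (exact permutation test, two-sided) gave p = 0.1 for each of the 3, which is the lower limit for groups of 3, and 0.200 for Fgf13. The median log2 fold change of the 4 FGF homologous factors was 0.45 with all 6 libraries and 0.30 without WT replicate 2, beside 0.00 for all genes in both. With trends removed these medians were 0.31 and 0.23, beside -0.06 and -0.01 for all genes. The medians of all 7 members were smaller, at 0.34 with all 6 libraries and 0.22 without WT replicate 2. With trends removed they were 0.19 and 0.14.

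**Figure D3:**
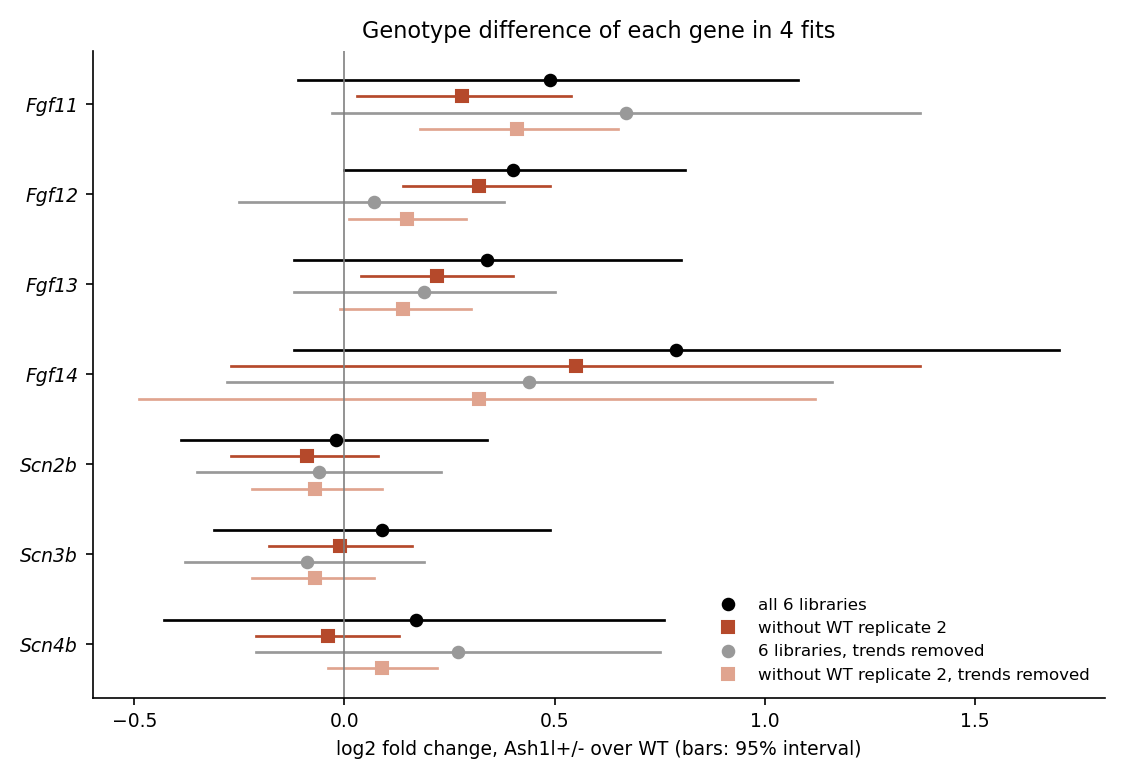
Log2 fold changes, Ash1l+/- over WT, with 95% intervals for each gene in 4 edgeR fits: all 6 libraries, without WT replicate 2, and both with the libraries' length and GC trends removed. The 4 FGF homologous factors have estimates above 0 in every fit, and the intervals of the 3 beta subunits cross 0 in every fit.

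Scn4b encodes a beta subunit that is linked to the alpha subunit by a disulfide bond and whose cytoplasmic tail can block the open pore, which gives resurgent current. It lies on chromosome 9 from 45138395 to 45154152 (ENSMUSG00000046480). CPM was 554, 465 and 484 in Ash1l+/- replicates 1, 2 and 3, against 539, 305 and 495 in the WT replicates. Apart from WT replicate 2 all libraries fell in the same range. The log2 fold change was 0.17 (SE 0.25, edgeR adjusted p = 0.686) with all 6 libraries. Without WT replicate 2 it was -0.04 (SE 0.08, adjusted p = 0.757), with a 95% interval for the fold from 0.862 to 1.09. With trends removed from the 5 libraries it was 0.09 (SE 0.06, adjusted p = 0.441).

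Scn3b, whose product associates with the alpha subunit without a covalent bond, lies on chromosome 9 from 40269217 to 40291618 (ENSMUSG00000049281). CPM was 97.0, 107 and 115 in the Ash1l+/- replicates, against 104, 85.3 and 111 in the WT replicates. The libraries of both genotypes interleaved. The log2 fold change was 0.09 (SE 0.17, edgeR adjusted p = 0.748) with all 6 libraries and -0.01 (SE 0.08, adjusted p = 0.926) without WT replicate 2, where the 95% interval of the fold ran from 0.880 to 1.11.

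Scn2b, the other disulfide-linked subunit of the set, lies on chromosome 9 from 45117782 to 45130070 (ENSMUSG00000070304). CPM was 63.2, 60.2 and 70.4 in the Ash1l+/- replicates, against 70.4, 59.2 and 67.5 in the WT replicates. It varied least across the WT libraries of the 7 genes, with an SD of 8.87% of the mean. The log2 fold change was -0.02 (SE 0.15, edgeR adjusted p = 0.925) with all 6 libraries and -0.09 (SE 0.08, adjusted p = 0.469) without WT replicate 2, where the fold lay between 0.830 and 1.06 at 95%. The lincRNA Gm10684 overlaps Scn2b on the opposite strand, with 22 to 36 reads a library and a total of 2.48% of the Scn2b reads. The library kit named in the labels does not mark strand, so reads from exon bases that such pairs share cannot be assigned by strand.

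The tandem neighbours Scn2b and Scn4b did not keep a fixed ratio. On the length-scaled level Scn4b was 8.20, 7.22 and 6.43 times Scn2b in Ash1l+/- replicates 1, 2 and 3, and 7.16, 4.82 and 6.85 times in the WT replicates. The ratio was lowest in WT replicate 2, and the genotypes overlapped with or without that library.

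Relative to WT replicates 1 and 3, the genes were lower in WT replicate 2 by unequal amounts. Log2 differences were -0.83 for Fgf14, -0.76 for Scn4b, -0.74 for Fgf11, -0.40 for Fgf13, -0.33 for Scn3b, -0.28 for Fgf12 and -0.22 for Scn2b. The median over all tested genes was -0.06, and the 5th and 95th percentiles were -2.63 and 2.12, so no member was extreme in that library. The median log2 difference of the 10 nociceptor markers was -0.31, that of 12 markers of large-diameter mechanoreceptors and proprioceptors -0.20, and that of the 7 sensory neuron markers -0.23. The summed CPM of those 7 ran the other way from their median, at 22702 in WT replicate 2 against 9103 to 9952 in the other 5 libraries.

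Cell type markers were counted in the same 5 libraries, where 9.39% of all genes were called higher and 10.4% lower. Satellite glia markers, 7 genes, had 5 higher and 0 lower in Ash1l+/-, at a median log2 difference of 0.31, 0.30 and 0.28 from WT replicates 1 and 3 in Ash1l+/- replicates 1, 2 and 3. Their summed CPM was 3715 to 4455 in Ash1l+/-, against 4092 to 12230 in WT, the highest in WT replicate 2. Of 8 myelinating Schwann cell markers, 0 were higher and 3 were lower, with a summed CPM of 3937 to 4676 in Ash1l+/- and 4762 to 5897 in WT. Of 7 sensory neuron markers 0 were higher and 2 lower, with a median log2 fold change of -0.09, of 10 nociceptor markers 2 were higher and 2 lower, with a median of 0.07, and of 12 mechanoreceptor and proprioceptor markers 4 were higher and 2 lower, with a median of 0.09. With trends removed from the 5 libraries, 1 satellite glia marker was higher (median 0.15), 2 myelinating Schwann cell markers were lower, and the sensory neuron list had 2 higher and 1 lower, the nociceptor list 3 higher and 0 lower, and the mechanoreceptor and proprioceptor list 2 higher and 0 lower. With all 6 libraries edgeR called 0 markers of these 5 lists, and the satellite glia median was 0.00. Their part in the Fgf12 difference was not tested. In bulk tissue fewer cells of a type and less RNA per cell cannot be told apart.

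The 9 genes listed as sodium channel alpha subunits, Scn7a among them, gave a background for these values. Binding of their products to the 2 families was not measured. Without WT replicate 2, 4 of 9 passed higher and 0 lower in edgeR, with a median log2 fold change of 0.27. Over all genes 9.39% passed higher and 10.4% lower in that fit, with a median of 0.00. Scn9a, an alpha subunit of nociceptors in which loss of function abolishes pain in human, had a CPM of 447, 532 and 548 in the Ash1l+/- libraries and of 336, 273 and 404 in the WT libraries (log2 fold change 0.46, SE 0.09, adjusted p = 0.00193 without WT replicate 2). Scn2a rose by 0.45 (SE 0.15), Scn7a by 0.35 (SE 0.09) and Scn1a by 0.27 (SE 0.08) on the log2 scale. The tetrodotoxin-resistant nociceptor channels Scn10a and Scn11a were at 0.06 and 0.04 and did not pass. With trends removed, 0 of the 9 passed in edgeR and the median was 0.07; with all 6 libraries 0 of the 9 passed, at a median of 0.55.

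Genes of the axon initial segment and node of Ranvier, where sodium channels are anchored, included more higher than lower calls. Of 20 genes, 9 rose and 1 fell without WT replicate 2, at a median log2 fold change of 0.20. Beside these, 9.39% of all genes were called higher and 10.4% lower, at a median of 0.00. With trends removed the shares of all genes were 2.67% and 4.54%. Chl1, a cell adhesion molecule of the L1 family, rose by 0.57 (SE 0.10), the potassium channel Kcna1 by 0.47 (SE 0.08) and Ank3, the ankyrin that anchors sodium channels, by 0.40 (SE 0.07). Sptbn4, the spectrin partner of that ankyrin, was the gene that fell, at -0.45 (SE 0.12). With trends removed 2 rose and 0 fell: Chl1 at 0.26 (edgeR adjusted p = 0.0378) and Kcna1 at 0.49 (0.000264). Kcna1 was at 5.90 CPM in WT replicate 2, against 158 and 161 in the other WT libraries, and with all 6 libraries 0 of the 20 passed.

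Proteases that cut beta subunits, and other regulators, moved in both directions. Of 10 sheddase and gamma-secretase genes, 2 rose and 2 fell without WT replicate 2. For this list and the regulators below, the shares of all genes called were 9.39% higher and 10.4% lower. The sheddases Adam17 and Adam10 rose by 0.42 (SE 0.12) and 0.23 (SE 0.08), and the gamma-secretase genes Psen2 and Aph1a were at -0.50 (SE 0.08) and -0.50 (SE 0.13). Psen2 was still called with trends removed, at -0.34 (edgeR adjusted p = 0.00819), and Bace1, the beta-secretase that cleaves beta subunits, was at 0.09 (SE 0.07) and did not pass. Of 14 regulators and partners of the FGF homologous factors and of the channel, 1 rose and 3 fell: Csnk2a1, a catalytic subunit of the kinase CK2 (casein kinase), at 0.24, and Mapk8ip1, a JNK scaffold protein, Calm3, a calmodulin gene, and the stress kinase Mapk14 at -0.25, -0.22 and -0.22. Mapk8ip2, a scaffold that binds FGF homologous factors, was at -0.17 (SE 0.07) and did not pass. Csnk2a1, Mapk8ip1, Calm3 and Mapk14 did not pass with trends removed, and Mapk8ip1 (0.04) and Calm3 (0.08) then lay on the other side of 0. In that fit Nedd4l, a ubiquitin ligase of sodium channels, fell by 0.22. Fgfr1, a receptor of secreted FGFs, was at -0.25 (SE 0.08) and was the 1 called of 4 FGF receptor genes tested, also with trends removed (-0.21, edgeR adjusted p = 0.0424). With all 6 libraries 0 of these genes passed.

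**Figure D4:**
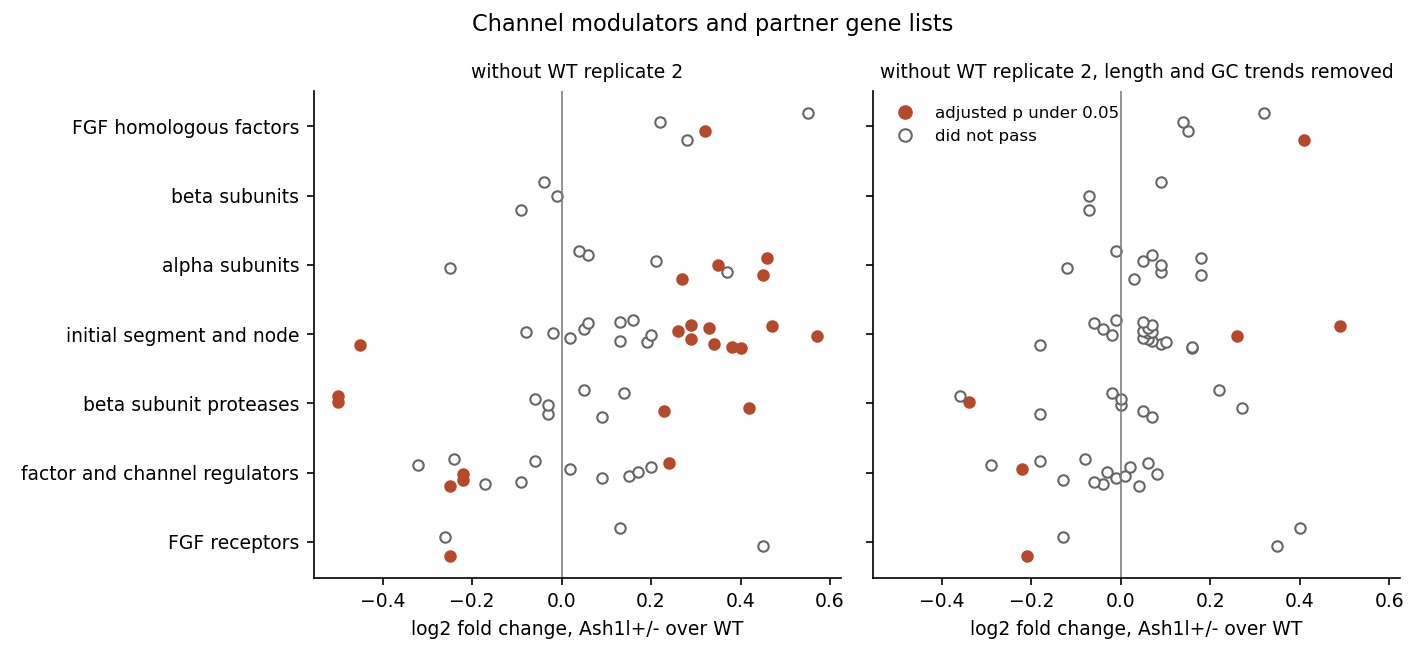
Each point is a gene's log2 fold change, Ash1l+/- over WT, in edgeR fits without WT replicate 2, as counted (left) and with length and GC trends removed (right); filled points passed an adjusted p of 0.05. In the alpha subunit row 4 of 9 points are filled on the left and 0 on the right, and in the FGF homologous factor row the filled point is Fgf12 on the left and Fgf11 on the right.

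Among the members, Fgf12 and Fgf13 had the most similar pattern over the 6 libraries. Their centred log2 CPM differed by a root mean square of 0.054, the smallest of the 21 pairs, followed by 0.103 for Scn2b and Scn3b. Over the 6 libraries and 9629 protein-coding genes averaging 10 CPM or more, the gene closest to Fgf13 was Micu3 (root mean square difference 0.036) and that closest to Fgf12 was Pbrm1 (0.031). The closest to Fgf11 was Adam23 (0.034), to Fgf14 Tcp11l1 (0.053), to Scn4b Mark1 (0.029), to Scn3b S100pbp (0.029) and to Scn2b Sgce (0.035), with Glb1l2 at the same 0.035. The median difference over all candidates lay between 0.337 and 0.530 for the 7 genes.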

How the data were processed

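The authors deposited raw read counts per gene, with positions and lengths, and FPKM values for the same genes. HISAT2 2.0.5 and featureCounts 1.5.0-p3 with GRCm38 (mm10) are named per the submitters' processing notes, with no settings stated in the sources used here. Per the labels' protocols, frozen ganglia were extracted with Trizol and prepared with a NEBNext Ultra RNA kit. The deposited FPKM equal counts per length over an effective library of 0.75 of the total count in WT replicate 2 and 1.02 to 1.04 times it elsewhere.

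From the counts, genes passing filterByExpr were tested in edgeR 4.0.16 (R 4.3.3) by the quasi-likelihood test with TMM factors and a genotype term, and p-values were adjusted over all genes by Benjamini-Hochberg, at 0.05. The SE is the log2 fold change over the square root of F. Levels between genes are TMM-scaled CPM per kilobase of gene length. Log2 CPM used a prior count of 2. Trends were removed as a loess offset (span 0.3) on gene length and transcript GC from GENCODE M21, known for 99.9% of tested genes. The fit was tested on simulated data. Alternatives used DESeq2 1.42.0, limma 3.58.1 and others given with the processing dependence. The members, gene lists and tests were chosen with earlier results of these data known. Named genes were the members, Ash1l, up to 3 called genes per direction in each partner list by size without WT replicate 2, and the closest gene to each member by pattern. Scn1a, Scn10a, Scn11a, Bace1, Mapk8ip2 and Nedd4l were named after their values were seen.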

Additional observations from a re-analysis of the deposited data

How the results depend on the processing

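With all 6 libraries, DESeq2 called 35 genes and the other alternatives on all 6 called 0; leaving out 1 library gave 0 to 3252 genes and 0 to 1 of the 7 members, the upper values without WT replicate 2. Without WT replicate 2, trend removal gave 1180 genes and 1 member, Fgf11 in place of Fgf12. The FPKM fits gave 579 genes (log2(FPKM + 1)), 687 (log2(FPKM + 0.1)) and 0 (log2(FPKM + 1), no filter, limma; 5128 at an unadjusted p under 0.05), each with 0 members. With no count filter 2 members passed, Fgf12 and Fgf13 (adjusted p = 0.0355). Leaving out 1 more library gave 796 (without WT replicate 1) to 4198 genes and 0 to 2 members; without Ash1l+/- replicate 2 or 3 there were 1855 and 2120 genes. Estimates of the beta subunits changed sign, uncalled. With 6 libraries Scn2b was at 0.10 with library totals and 0.01 with no filter, and at -0.09 to 0.03 leaving out 1 library; Scn3b was at -0.09 with trends removed and -0.01 to 0.18 leaving out 1; Scn4b was at -0.04 to 0.33 leaving out 1. Without WT replicate 2, Scn3b was at -0.07 to 0.05 and Scn4b at -0.13 to 0.02 leaving out 1 more, and Scn4b was at 0.09 with trends removed and 0.01 with the replicate block. The FGF homologous factors kept a positive log2 fold change in all alternatives run, which reuse the same libraries. The cause of these changes was not tested. Library totals moved the median of all genes by 0.131 (log2) with 6 libraries. In DESeq2 without WT replicate 2, Fgf14 had no adjusted p.

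Deviations of same-numbered libraries from their group means correlated at 0.001, -0.032 and 0.038, and those of differently numbered libraries at -0.071 to 0.038. The WT mean includes WT replicate 2, which stood apart, so these correlations cannot exclude a pairing by replicate number. The replicate block gave 0 genes with 6 libraries, and 3982 genes and 2 members, Fgf12 and Fgf13, without WT replicate 2. Depth limits Fgf14, with 6 to 27 reads a library.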
